A study of Mus musculus with 32 samples.

Results

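The 10 genes described here are established transcriptional targets of p53, followed across every perturbation of CTCF, cohesin and Chd4 in the series. They were taken by gene name: Cdkn1a, Mdm2, Ccng1, Trp53inp1, Bax, Bbc3, Sesn2, Zmat3, Phlda3 and Aen, 10 of the 17440 genes listed in at least 1 of 5 expression tables. All 10 were listed in each table, and all 10 had a mean above the minimum of 10 normalised counts that was set for testing. CTCF is a DNA-binding protein that stops cohesin at loop anchors, RAD21 is a core subunit of the cohesin ring, and Chd4 is the chromatin remodeller of the NuRD complex.

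RNA was sequenced from 32 libraries of E14, a mouse embryonic stem cell line, in 16 groups of 2. CTCF AID cells, in which endogenous CTCF carries an auxin-inducible degron that marks the protein for destruction, were taken without IAA (auxin) and after 12 and 24 h in 500 uM IAA. RAD21 AID cells were taken without ligand and after 12 and 24 h in 1 uM 5-Ph-IAA. CTCF AID cells labelled as grown in serum were taken without IAA and after 12 h in 500 uM IAA. In CTCF AID cells with an overexpression control (oectrl), wild-type CTCF (oeCTCFwt) or a mutated CTCF (oeCTCFmut), each was sampled without and with IAA. The treatment was 12 h in 500 uM IAA for oectrl_IAA and oeCTCFmut_IAA. For oeCTCFwt_IAA, whose treatment label contradicts its title, the time is not settled. The last 4 libraries came from CTCF AID cells with a control hairpin (shctrl) or a Chd4 hairpin (shChd4), with no IAA named in their labels.

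Several limits come with these groups. The mutation in CTCF, the number of clones and the promoters of the transgenes are not given in the sources used here, nor do the labels say that the replicates were separate cultures, so p-values measure only the spread between these samples. Groups follow the sample titles, and 4 libraries, those titled oeCTCFmut and oeCTCFwt_IAA, have treatment labels that contradict their titles. Per the growth protocol all samples, even the 4 labelled serum, were kept without serum in LIF and 2 kinase inhibitors. The 5 tables were normalised separately, so levels were compared only within a table.

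The library totals lay between 15364584 and 19642332 normalised counts, and replicates correlated across genes with r between 0.982 and 0.9921 on the log2 scale. The 10 markers of mouse embryonic stem cells were listed in all groups with none at 0, and their sum lay between 75902 and 137943 per library. Chd4 mRNA was 9725 normalised counts with the control hairpin and 3554 with the Chd4 hairpin, and Ctcf mRNA was 4233 in the overexpression control, 9378 in oeCTCFwt and 9650 in oeCTCFmut. The degron acts on protein, so Ctcf mRNA does not check its loss; it was 3277 before and 4014 after 12 h of IAA.

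p53 is a transcription factor that is held at a low level by Mdm2, which ubiquitinates it, and by Mdm4. When it is stabilised, for example after DNA damage, it binds response elements near its targets and raises their transcription. In embryonic stem cells p53 is abundant, and its targets include genes that halt the cell cycle, genes that trigger mitochondrial apoptosis and genes that limit p53 itself.

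The members' roles differ. Cdkn1a encodes p21, an inhibitor of cyclin-dependent kinases, and lies on chr17:29090976-29100727 (plus strand; GRCm38, GENCODE annotation). Mdm2 (chr10:117688875-117710758, minus strand) and Ccng1, which encodes cyclin G1 (chr11:40748552-40755311, minus strand), belong to the feedback arm. Bax (chr7:45461697-45466898, minus strand) permeabilises the mitochondrial outer membrane, and Bbc3 (chr7:16308393-16318205, plus strand) encodes PUMA, which activates that step. Aen (chr7:78895854-78911209, plus strand) encodes a nuclease of apoptotic cells. Trp53inp1 (chr4:11156431-11174379, plus strand) encodes a stress-induced cofactor. Sesn2 (chr4:132492032-132510501, minus strand) encodes a sestrin that restrains mTORC1 and is also a target of ATF4. Zmat3 (chr3:32334792-32366014, minus strand) encodes an RNA-binding protein, and Phlda3 (chr1:135766119-135769136, plus strand) a repressor of AKT.

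Sequences upstream of 2 members are shown because Cdkn1a and Ccng1 are both classical targets and moved apart in several of the comparisons below. A p53 response element is a pair of 10-base motifs. RefSeq promoter windows of 250 bases before to 50 after a start (GRCm38.p6) were given for 8 of the 10 members, with none for Trp53inp1 and Zmat3. A search of these windows for adjoining motifs, with at most 2 departures from the p53 consensus over 20 bases and the fixed C and G of each motif required, found a match in 2 of the 8 members. The consensus is its own reverse complement, so both strands are covered. Over all 27025 genes with a window, 0.392% had a match. The search was written after the members' sequences had been read and both matches recognised, so the count is a description. With up to 13 bases allowed between the motifs, an alternative tried later, 3 of the 8 members had a match (Bax was added), against 4.71% of all genes. Capitals mark the 20-base match, with 1 departure from the consensus in each:
Cdkn1a (chr17:29090913-29090962, plus strand): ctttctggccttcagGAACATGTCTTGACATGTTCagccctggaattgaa
Ccng1 (chr11:40755447-40755496, minus strand): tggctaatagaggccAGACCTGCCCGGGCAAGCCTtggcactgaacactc
The Cdkn1a match began 51 bases before the more distal of 2 RefSeq starts, and the Ccng1 match 195 bases before its start. A match is letters in a window and not a measured binding site.

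Before any treatment the members spanned a wide range of levels. Per kilobase of exon in untreated CTCF AID cells, the mean was 2253 normalised counts for Ccng1, 1182 for Bax, 902 for Cdkn1a, 854 for Trp53inp1, 515 for Mdm2, 513 for Sesn2, 382 for Aen, 331 for Phlda3, 171 for Zmat3 and 66.4 for Bbc3. Of neighbours in that order, Mdm2 and Sesn2 had overlapping libraries. An annotated exon overlaps Cdkn1a on the opposite strand and Bax on the same strand, and whether counting used strand is not given in the sources used here.

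**Figure D1:**
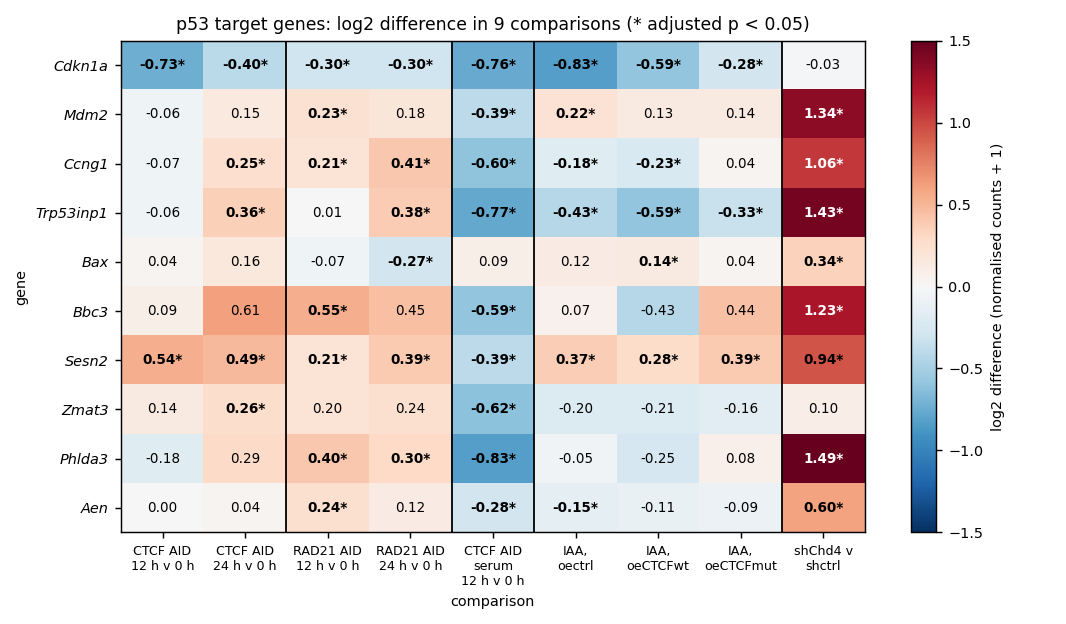
Heat map of the log2 difference in normalised counts (colour and printed value) for the 10 genes (rows) in 9 comparisons (columns), 2 libraries a group; an asterisk and bold type mark an adjusted p under 0.05. Cdkn1a was lower in every comparison with IAA or 5-Ph-IAA, 9 genes fell after CTCF degradation in serum, and 8 rose with the Chd4 hairpin.

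At 12 h of CTCF degradation in serum-free medium, p21 and Sesn2 moved in opposite directions and the other 8 members did not pass the test. Cdkn1a had 3140 and 3268 normalised counts without IAA and 1910 and 1958 at 12 h. Both treated libraries lay below both untreated ones, and the gene fell by 0.73 on the log2 scale (SE 0.05, adjusted p = 0.000238). Sesn2 had 1805 and 1760 before and 2607 and 2588 after, again with no overlap, a rise of 0.54 (SE 0.05, adjusted p = 0.000719). So 2 of 10 members were called, 1 up and 1 down, where 17.8% of the 13699 genes tested were called (9.39% higher and 8.40% lower). Tests throughout were limma fits on log2(value + 1) across all genes of a table, with Benjamini-Hochberg adjustment and a threshold of 0.05. All differences are on that scale, which understates the change of low genes.

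The remaining members were close to their starting level at 12 h. Their log2 differences lay between -0.18 for Phlda3 (95% interval -0.40 to 0.05) and 0.14 for Zmat3 (-0.01 to 0.30). Mdm2 had 2541 and 2692 before and 2496 and 2522 after, a difference of -0.06 with an interval of -0.18 to 0.06. The median of the 10 members was -0.03, and that of all genes 0.00.

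By 24 h of CTCF degradation Ccng1, Trp53inp1, Sesn2 and Zmat3 were above untreated cells, while Cdkn1a was still below. Here 4 of 10 members rose and 1 fell, where 22.5% of all genes were called (11.7% higher and 10.8% lower). The members' median was 0.25. Cdkn1a had 2382 and 2475 normalised counts, which lay between its 12 h and its untreated values, and was 0.40 lower than in untreated cells on the log2 scale (SE 0.05, adjusted p = 0.002).

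Trp53inp1 had 5631 and 5433 without IAA, 5466 and 5123 at 12 h and 7455 and 6743 at 24 h. Only the 24 h libraries stood above the others, a rise of 0.36 over untreated cells (SE 0.06, adjusted p = 0.00609). Ccng1 followed the same order, with 7898 and 7927, then 7762 and 7322, then 9725 and 9067, and rose by 0.25 at 24 h (SE 0.05, adjusted p = 0.0107). Sesn2 stayed high at 2447 and 2563, 0.49 above untreated cells (adjusted p = 0.000833). Zmat3, at 1899 and 2003 before and 2396 and 2262 at 24 h, rose by 0.26 (adjusted p = 0.0333).

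Bbc3 at 24 h rested on 1 library. It had 163 and 119 normalised counts without IAA, 146 and 151 at 12 h, and 155 and 292 at 24 h. The groups overlapped, and the difference of 0.61 did not pass (adjusted p = 0.189). Without the lower of the 24 h libraries it was 1.06 (adjusted p = 0.0288). Mdm2 (0.15), Bax (0.16), Phlda3 (0.29) and Aen (0.04) did not pass either.

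Between 12 and 24 h, none of the 10 members passed the limma test, where 0.146% of all genes were called (0.0876% higher and 0.0584% lower). At an unadjusted p under 0.05 there were 5, but the share of all genes at that threshold was not counted. No other tool was run. The largest differences were 0.52 for Bbc3, 0.47 for Phlda3 (439.8 and 472, then 624 and 639.8) and 0.42 for Trp53inp1. Cdkn1a differed by 0.33 (interval 0.21 to 0.44, adjusted p = 0.0771). Leaving out either untreated library cut the members called at 24 h against 0 h from 5 to 3; Zmat3 lost its call without any 1 of the 4 libraries, and Ccng1 without either untreated one (adjusted p = 0.063 and 0.0599). The 3 of 4 listed mesoderm markers summed to 86.9 and 92.7 without IAA, 135 and 197 at 12 h and 243 and 250.4 at 24 h, and the 3 of 6 listed markers of fibroblasts or feeders to 241 and 253, then 106 and 117, then 94.1 and 103. The 3 of 4 listed neural markers summed to 925 and 937, then 1437 and 1473, then 1072 and 1221. Pdgfrb made up most of the fibroblast or feeder sums (means 212, 76.1 and 62.1). Tubb3 made up most of the neural ones (775, 1355 and 1038). Against untreated cells, the median log2 difference of the 3 neural markers was -0.23 at 12 h and 0.42 at 24 h. For the 3 fibroblast or feeder markers it was -0.32 and -0.69. The part of all these markers in the results at both times was not tested.

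**Figure D2:**
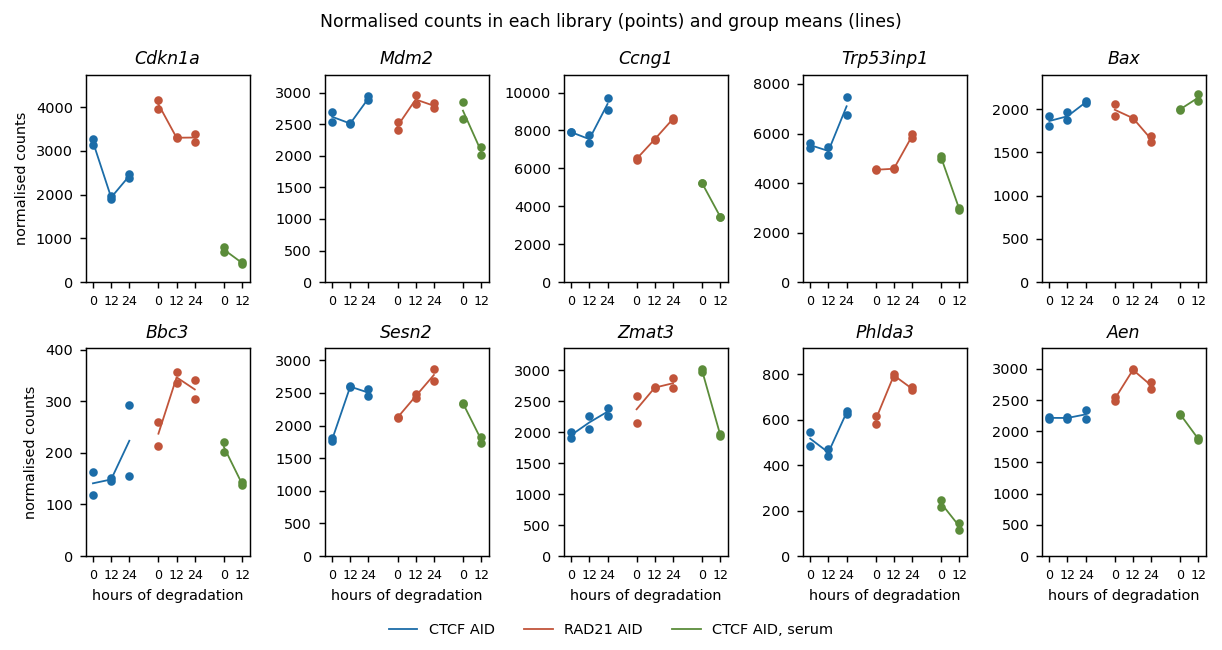
Normalised counts (vertical axis, from 0) of each gene in each library (points) against hours of degradation, for CTCF AID, RAD21 AID and CTCF AID in serum; lines join group means, and each series was normalised separately. Cdkn1a fell in all 3 series, whereas Trp53inp1 and Ccng1 ended above their starting level in the first 2 and below it in serum.

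Degrading RAD21 for 12 h raised Mdm2, Ccng1, Bbc3, Sesn2, Phlda3 and Aen, and Cdkn1a fell. That is 6 of 10 members up and 1 down, where 13.0% of 13738 genes were called (6.66% higher and 6.35% lower). The median of the members was 0.21. Cdkn1a had 4161 and 3967 normalised counts without ligand and 3316 and 3282 at 12 h, a fall of 0.30 (SE 0.04, adjusted p = 0.00818).

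Phlda3 had 583 and 618 before and 787 and 803 at 12 h, and rose by 0.40 (SE 0.07, adjusted p = 0.0152). Bbc3 had 214 and 260.4 before and 336 and 357 after, a rise of 0.55 (SE 0.13, adjusted p = 0.0395). Aen (0.24), Mdm2 (0.23), Ccng1 and Sesn2 (0.21 each) rose with no overlap between their libraries. Trp53inp1 was level at 4551 and 4520 before and 4563 and 4592 after. The RAD21 12 h count is the least stable here: leaving out any 1 of the 4 libraries left between 1 and 3 members called. Summed primitive endoderm markers, 4 of 6 listed, were 98.5 and 102 without ligand, 147 and 151 at 12 h and 119 and 152 at 24 h, and trophoblast markers, 2 of 5 listed, were 235 and 322, then 192 and 202, then 149 and 168. None of these was at 0 in a group mean, and their part in the RAD21 results was not tested. Ccng1 was called in each of those fits, and Cdkn1a was at adjusted p = 0.0508 without the first untreated library and 0.0543 without the second 12 h library.

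At 24 h of RAD21 degradation 4 of 10 members rose and 2 fell, where 13.7% of all genes were called (6.54% higher and 7.16% lower), and the members' median was 0.27. Ccng1 rose from 6554 and 6450 to 8667 and 8557, by 0.41 (SE 0.03, adjusted p = 0.000411). Trp53inp1 reached 5985 and 5806, a rise of 0.38 (SE 0.03, adjusted p = 0.000951), and Sesn2 2691 and 2861, a rise of 0.39 (adjusted p = 0.00379). These 3 genes also rose between 12 and 24 h, the only members to do so, where 15.9% of genes were called (7.67% higher and 8.26% lower). The step was 0.36 for Trp53inp1, 0.19 for Ccng1 and 0.18 for Sesn2, the last of which lost its call without any 1 of the 4 libraries.

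Cdkn1a stayed at 3213 and 3395 at 24 h, 0.30 below untreated cells (adjusted p = 0.00749), with a 24 h to 12 h difference of 0.00 (interval -0.10 to 0.11). Bax also fell, from 1922 and 2064 to 1687 and 1620, by 0.27 on the log2 scale (SE 0.05, adjusted p = 0.0223). It lost the call without the second untreated library (adjusted p = 0.11) or without either 24 h library (0.0585 and 0.0942). Phlda3 was 0.30 higher (adjusted p = 0.0384), and lost its call without any 1 of the 4 libraries (adjusted p from 0.0899 to 0.147).

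Among the regulators of p53, Mdm4 rose after CTCF loss in serum-free CTCF AID cells without a transgene. Mdm4, an inhibitor of p53, had 6843 and 6042 normalised counts in untreated CTCF AID cells, 8572 and 8293 at 12 h and 10138 and 9128 at 24 h. It rose by 0.39 and 0.58 (adjusted p = 0.011 and 0.00189). In RAD21 AID cells its differences were -0.12 and 0.07, and neither passed; the difference between the lines was not tested, since their tables were normalised apart. Trp53 mRNA itself rose by 0.19 at 12 h of RAD21 degradation (4184 and 4132, then 4817 and 4638, adjusted p = 0.0182 in limma). The rise was gone at 24 h, at 3821 and 3835. The limma difference was then -0.12 against untreated cells, which did not pass (adjusted p = 0.065), and -0.30 against 12 h (adjusted p = 0.00238). At both times of CTCF degradation Trp53 mRNA was 0.09 higher without passing. Of the 12 regulators tested, 2 rose and 0 fell at 12 h of CTCF loss, and 1 rose and 1 fell at 24 h, counts near or below the 17.8% and 22.5% of all genes. In RAD21 AID cells 1 rose and 1 fell at 12 h, near the 13.0% of all genes, and at 24 h none was called in either direction, where 13.7% of all genes were.

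A further list of 30 p53 targets, of which 28 were tested in both tables, was counted in the same way. After CTCF loss 0 rose and 3 fell at 12 h, where 17.8% of all genes were called, and 4 rose and 2 fell at 24 h, where 22.5% were, with medians of -0.02 and 0.04. The 24 h count is near the share over all genes. Pmaip1, which encodes the BH3-only protein NOXA, fell from a mean of 150.0 to 63.2 at 12 h (log2 -1.24, adjusted p = 0.00555). After RAD21 loss 7 rose and 2 fell at 12 h, where 13.0% of all genes were called, and 9 rose and 1 fell at 24 h, where 13.7% were, with medians of 0.11 and 0.27. Plk2, a kinase induced by p53, rose from 598 to 1080 at 12 h (0.85, adjusted p = 0.000964), and Tnfrsf10b, a death receptor, from 757 to 1243 at 24 h (0.71, adjusted p = 0.00101). Of 13 genes of the BCL2 family and caspases tested, 1 rose and 3 fell at 12 h and 2 rose and 8 fell at 24 h of CTCF loss, and 3 rose and 0 fell at 12 h and 1 rose and 1 fell at 24 h of RAD21 loss. Among them Bak1, which permeabilises mitochondria alongside Bax, fell from 2224 to 468 at 12 h and 346 at 24 h of CTCF loss (-2.25 and -2.69, adjusted p = 0.000172 and 6.00e-05).

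In serum, the same 12 h of CTCF degradation lowered 9 of the 10 members, with Bax the exception. None rose, and the members' median was -0.59, where 17.0% of 14494 genes were called (7.73% higher and 9.25% lower) and the median of all genes was 0.00. Trp53inp1 had 4979 and 5082 normalised counts without IAA and 2894 and 2996 with it, a fall of 0.77 (SE 0.03, adjusted p = 2.63e-05). Ccng1 went from 5206 and 5242 to 3443 and 3458, a fall of 0.60 (SE 0.03, adjusted p = 3.94e-05). In both genes the 2 treated libraries lay far below the untreated pair.

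Cdkn1a had 684 and 803 before and 464 and 413 after, a fall of 0.76 (SE 0.10, adjusted p = 0.00284). Zmat3 had 3014 and 2976 before and 1971 and 1939 after, a fall of 0.62 (SE 0.04, adjusted p = 0.000102). Sesn2 went from 2333 and 2351 to 1739 and 1832, a fall of 0.39 (SE 0.04, adjusted p = 0.00127), whereas it rose in serum-free medium. Phlda3 fell by 0.83, Bbc3 by 0.59, Mdm2 by 0.39 and Aen by 0.28. Bax had 1992 and 2006 before and 2173 and 2096 after, a difference of 0.09 that did not pass (adjusted p = 0.16).

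Of the 12 regulators 0 rose and 4 fell, where 17.0% of all genes were called. Mdm4 fell from 6401 and 6734 to 3723 and 3989 (-0.77, adjusted p = 7.60e-05), and Trp53 mRNA differed by 0.02 (interval -0.05 to 0.08). Of the 28 further p53 targets tested, 1 rose and 11 fell, with a median of -0.19. Btg2, an antiproliferative target, fell from 734 to 404 (-0.86, adjusted p = 0.000435), and Plk3 rose from 436 to 582 (0.42, adjusted p = 0.0101). Summed embryonic stem cell markers moved in the same direction, from 86416 and 86707 without IAA to 75902 and 77158 with it, while the 3 listed mesoderm markers went from 50.1 and 72.8 to 147 and 153. Their part in the result was not tested. Leaving out 1 library at a time left between 6 and 9 members called: Bbc3 lost its call without the first untreated library or without either treated one, and Mdm2 and Phlda3 without the first treated one (adjusted p = 0.0583 and 0.0881). The serum and serum-free libraries were normalised apart, so the difference between media was not tested.

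**Figure D3:**
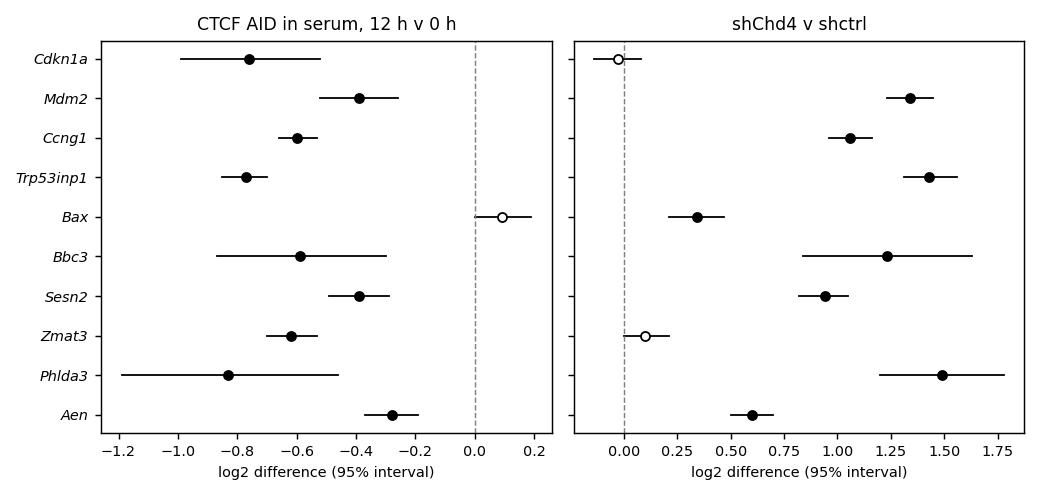
Log2 difference (points) with its 95% interval (bars) for the 10 genes after 12 h of CTCF degradation in serum (left) and with the Chd4 hairpin (right); filled points have an adjusted p under 0.05. On the left 9 genes lie below 0. On the right 9 lie above it, 8 of them with filled points, and Cdkn1a is near 0 at -0.03.

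With overexpressed CTCF, the question is whether a transgene changes the response to IAA. In the overexpression control, IAA lowered Cdkn1a, Ccng1, Trp53inp1 and Aen and raised Mdm2 and Sesn2. That is 2 members up and 4 down, where 25.3% of 13938 genes were called (12.8% higher and 12.5% lower), and the median of the members was -0.10. Cdkn1a had 3542 and 3539 normalised counts without and 2007 and 1967 with IAA, a fall of 0.83 (SE 0.04, adjusted p = 1.81e-07). Sesn2 rose from 2668 and 2471 to 3328 and 3313 (0.37, SE 0.06, adjusted p = 0.00104). Trp53inp1 fell from 6783 and 7225 to 5014 and 5376 (-0.43, SE 0.04, adjusted p = 3.38e-05), and Ccng1 from 8294 and 8502 to 7348 and 7442 (-0.18, adjusted p = 0.000885).

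Mdm2 rose by 0.22 (adjusted p = 0.00915) but not without the second untreated library (adjusted p = 0.0768) or the first treated one (0.0715). Aen fell by 0.15 (adjusted p = 0.0364) and lost its call without the second untreated library (0.245) or either treated one (0.163 and 0.0787). In CTCF AID cells without a transgene, 12 h of IAA had left Trp53inp1 and Ccng1 within 0.07 of their untreated level on the log2 scale.

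With wild-type CTCF, IAA still lowered Cdkn1a, from 3825 and 3771 to 2514 and 2532 (-0.59, SE 0.04, adjusted p = 7.83e-06). Here 2 members rose and 3 fell, where 21.4% of genes were called (11.1% higher and 10.3% lower). Trp53inp1 fell from 6732 and 6765 to 4578 and 4415 (-0.59, adjusted p = 9.87e-06) and Ccng1 from 8114 and 8213 to 6969 and 6905 (-0.23, adjusted p = 0.000301). Sesn2 rose by 0.28 and Bax by 0.14. The Bax call was lost without any 1 of the 4 libraries, and that of Sesn2 without the second library of either group (adjusted p = 0.0564 and 0.0625). The change in the IAA response relative to the control was 0.24 for Cdkn1a (interval 0.12 to 0.37, adjusted p = 0.066). None of the members passed that interaction test in limma, where 1.41% of genes did (1.10% higher and 0.309% lower). Of the members 2 had an unadjusted p under 0.05, and the share of all genes at that threshold was not counted.

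With mutated CTCF the fall of Cdkn1a was smaller. Cdkn1a had 3159 and 3082 normalised counts without and 2485 and 2661 with IAA, a fall of 0.28 (SE 0.04, adjusted p = 0.000888), and the IAA response differed from that of the control by 0.55 (SE 0.06, adjusted p = 0.000352). Ccng1 had 7541 and 7854 without and 8042 and 7823 with IAA, with overlap, and its response differed from the control by 0.23 (SE 0.04, adjusted p = 0.0167). Those 2 members passed the interaction test, where 1.64% of genes did (1.05% higher and 0.581% lower). The Cdkn1a interaction lay between 0.50 and 0.60 when any 1 of the 8 libraries was left out, with an adjusted p of at most 0.00275. That of Ccng1 missed the threshold without 4 of them in turn: the second oectrl, the first oectrl_IAA, the first oeCTCFmut and the first oeCTCFmut_IAA library (adjusted p from 0.0645 to 0.0806).

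Within the lines with mutated CTCF, 1 member rose with IAA (Sesn2, by 0.39) and 2 fell (Cdkn1a and Trp53inp1), where 16.2% of genes were called (8.31% higher and 7.92% lower). The starting points differed too. Without IAA, Cdkn1a was 0.18 lower with mutated CTCF than in the control (adjusted p = 0.0237) and Ccng1 0.13 lower (adjusted p = 0.0291), 2 of 10 members where 5.55% of genes were called (3.31% higher and 2.24% lower). Both calls depended on single libraries: Cdkn1a missed the threshold without any 1 of the 4, and Ccng1 without any but the second oeCTCFmut library. With wild-type CTCF and no IAA, none of the members was called in limma, where 0.897% of genes were (0.502% higher and 0.395% lower). Of the members 2 had an unadjusted p under 0.05, with the share of all genes at that threshold again not counted. Summed neural markers, 3 of 4 listed with Tubb3 the highest, moved with IAA as well. They went from 1492 and 1535 to 2399 and 2483 in the control, from 1271 and 1299 to 2120 and 2221 with wild-type CTCF, and from 1823 and 1939 to 2719 and 2850 with mutated CTCF. Tubb3 made up most of each sum, with a mean of 1395 without and 2371 with IAA in the control. The median log2 difference of the 3 markers was negative, at -0.65 in the control, -0.44 with wild-type and -0.55 with mutated CTCF. The part of these markers in the results was not tested. These comparisons share the control libraries, and the oeCTCFmut and oeCTCFwt_IAA libraries are those whose treatment labels contradict their titles.

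In order of Cdkn1a level, the 6 groups of this table ran from oectrl_IAA (mean 1987) through oeCTCFwt_IAA (2523), oeCTCFmut_IAA (2573), oeCTCFmut (3121) and oectrl (3541) to oeCTCFwt (3798). The libraries of the neighbours oeCTCFwt_IAA (2514 and 2532) and oeCTCFmut_IAA (2485 and 2661) overlapped. The order for Sesn2 was nearly the reverse, with the 3 IAA groups at means of 2922 to 3321 and the 3 groups without IAA at 2402 to 2569. Trp53 mRNA rose with IAA in the control (0.12, adjusted p = 0.0167) and with wild-type CTCF (0.23, adjusted p = 0.000573), and neither interaction passed (0.11 with wild-type and -0.10 with mutated CTCF). Mdm4 fell with mutated CTCF (-0.19, adjusted p = 0.00559), a response whose difference from the control did not pass (interaction -0.10, adjusted p = 0.481). With IAA Mdm4 differed by -0.09 in the control (interval -0.17 to -0.01) and by -0.08 with wild-type CTCF (interval -0.16 to 0.00). Neither passed, whereas Mdm4 had risen in CTCF AID cells without a transgene.

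**Figure D4:**
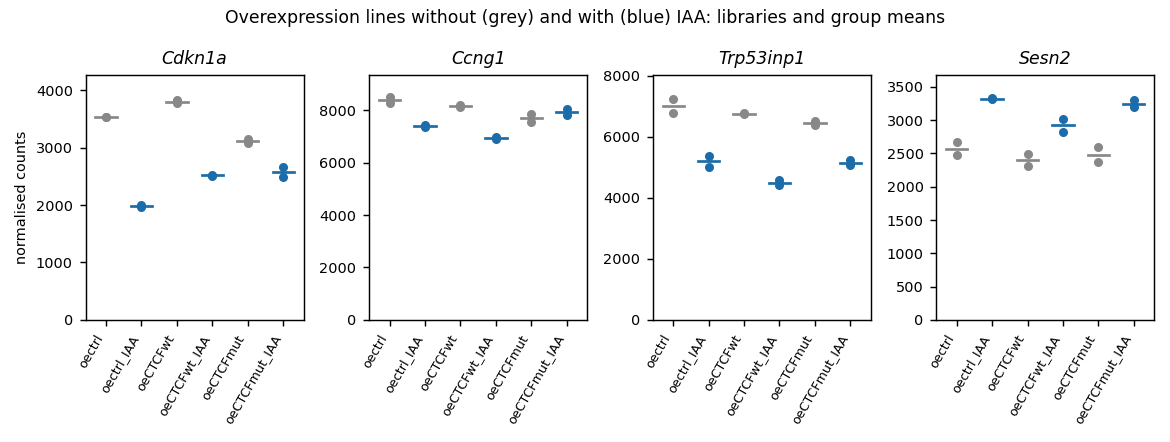
Normalised counts (vertical axis, from 0) of Cdkn1a, Ccng1, Trp53inp1 and Sesn2 in each library (points) of the 6 overexpression groups, with group means as bars; blue marks groups titled with IAA. Cdkn1a ran from 1987 in oectrl_IAA to 3798 in oeCTCFwt, and Sesn2 was higher in the 3 groups with IAA.

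With the Chd4 hairpin 8 of 10 members rose and none fell, with a median log2 difference of 1.00. In this comparison 67.4% of 15499 genes were called (33.5% higher and 33.8% lower), and the median of all genes was 0.01. Phlda3 had 422 and 334 normalised counts with the control hairpin and 1099 and 1016 with the Chd4 hairpin, a rise of 1.49 (2.81-fold, SE 0.12, adjusted p = 6.27e-05). Trp53inp1 rose from 9402 and 9207 to 26311 and 23942 (1.43, SE 0.05, adjusted p = 3.81e-06). Mdm2 rose from 3066 and 3155 to 8107 and 7660 (1.34, SE 0.05, adjusted p = 3.54e-06). No library of one group reached the range of the other in these 3 genes.

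Bbc3 rose from 137 and 169 to 404 and 321 (1.23, SE 0.17, adjusted p = 0.000592), and Ccng1 from 11264 and 11105 to 23945 and 22680 (1.06, SE 0.04, adjusted p = 4.89e-06). Sesn2 rose by 0.94, Aen by 0.60 and Bax by 0.34, each with no overlap. Cdkn1a, in contrast, had 4246 and 4196 with the control and 4051 and 4210 with the Chd4 hairpin, and the groups overlapped. Its difference was -0.03 with an interval of -0.14 to 0.08, so a rise of the size seen in Mdm2 or Ccng1 lay outside the interval. Zmat3, at 4878 and 4894 against 5355 and 5132, differed by 0.10 (adjusted p = 0.0792); without the second Chd4 hairpin library it was 0.13 (adjusted p = 0.0448).

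Trp53 mRNA rose from 3130 and 3088 to 4801 and 5188 (0.68, adjusted p = 5.10e-05), and Mdm4 fell from 11307 and 11114 to 5394 and 5183 (-1.08, adjusted p = 4.61e-06). Ppm1d, a phosphatase that switches off p53 and is itself a target, rose from 587 to 1087 (0.89, adjusted p = 0.000123). Of the 30 further p53 targets, all tested here, 18 rose and 6 fell, with a median of 0.49, where 67.4% of all genes were called; of the 12 regulators 3 rose and 4 fell. Perp rose from 60.8 to 492 (3.00), Plk2 from 1182 to 5764 (2.29) and Btg2 from 1394 to 6158 (2.14), while the repair gene Ddb2 fell from 364 to 136 (-1.41).

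Markers of other cell types moved in the same comparison. Summed embryonic stem cell markers were 136279 and 137943 with the control and 84665 and 85983 with the Chd4 hairpin. The 5 of 6 primitive endoderm markers that were listed summed to 70.5 and 77.8 against 728 and 751. Dab2, at a mean of 616, made up most of the sum with the Chd4 hairpin. Of these 5 markers, 3 rose and 2 fell, where 67.4% of all genes were called. The 4 of 5 two-cell-like markers that were listed summed to 37.6 and 42.4 against 688 and 698. The 4 of 6 listed markers of fibroblasts or feeders summed to 279 and 363 against 602 and 672, the 2 of 5 of trophoblast to 270.3 and 325 against 434 and 490.3, the 4 neural ones to 936 and 984 against 1665 and 1681, and the 3 of 4 of mesoderm to 78.4 and 95.3 against 134 and 165. Tubb3 made up most of the neural sums, at means of 828 and 1572, and of the 4 neural markers 1 rose and 1 fell. None of the listed markers was at 0 in both libraries of a group. In bulk RNA, fewer cells of a type and less RNA per cell cannot be told apart, and the part of these shifts in the members' rise was not tested.

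Across the 32 libraries, with each gene scaled within its table, the members did not move as a block. Pearson's r between a member and the other 9 had a median of 0.616 for Ccng1, 0.5 for Phlda3, 0.458 for Trp53inp1 and Bbc3, 0.0133 for Cdkn1a and -0.15 for Bax. Cdkn1a and Sesn2 had the lowest r of any pair that includes Cdkn1a, -0.615, and Ccng1 and Trp53inp1 the highest of all pairs, 0.912. The libraries share tables, controls and treatments, so these values describe the set and carry no p. Of 12389 genes tested in all tables, those most like Ccng1 were Trp53inp1, Eda2r (0.892), Ctsd (0.864), Btg2 (0.856) and Susd6 (0.85). Those most like Cdkn1a were Kbtbd11 (0.917), Car2 (0.907), Slc2a3 (0.895), Man2a1 (0.893) and Ooep (0.892), and those most like Mdm2 were Notch1 (0.822), Scamp1 (0.817), Naprt (0.796), Gfpt1 (0.79) and Pdgfra (0.782).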

How the data were processed

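The authors deposited 5 tables of normalised counts, a signal that is never negative, 1 row per gene; per the submitters' processing notes, Trim Galore, Bowtie2, STAR, RSEM, DESeq2 and the mm10 build were used, with versions and order not given in the sources used here. The values were not whole reads: 10.7 to 46.7% of low values per library lay within 0.02 of a whole multiple of the best step, so no count model was run and the read depth behind a value is unknown. limma 3.58.1 (R 4.3.3) was fitted to log2(value + 1) per table, using every group of a table and only genes averaging 10 or more, a mean-variance trend and Benjamini-Hochberg adjustment over all genes. The fit was tried on simulated data for the first comparison of each table only, so the interactions and the 24 h comparisons were not covered. The last line of the CTCF AID table was incomplete and left out; the other tables list 113 to 165 genes past its end, none a member. Alternatives were a pseudocount of 5, no filter, trimmed-mean scaling, a replicate block, fits of the compared groups alone, and each library left out. Groups by the treatment label were tried for wild-type CTCF against control only. Named genes were the members, Trp53, Mdm4, the perturbed genes, up to 3 rises and 3 falls per list (mean at least 50), of which a selection is printed, and the 5 most like Cdkn1a, Mdm2 and Ccng1. The members and lists were chosen with earlier results of these data known. Of gene IDs, 96.8 to 96.9% matched GENCODE vM21.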

Additional observations from a re-analysis of the deposited data

Results flagged for a closer look

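For 8 results the effect of a perturbation was flagged as differing between settings. In the overexpression table the IAA response with mutated CTCF differed from that of the control by 0.55 on the log2 scale for Cdkn1a and by 0.23 for Ccng1, both by the interaction test in limma (adjusted p = 0.000352 and 0.0167); the second was lost in 4 of 8 fits that each left out a library.

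The other 6 were picked by a rule. Treated and untreated libraries did not overlap in either table, and the differences had opposite signs. The share of all genes that meet this rule was not counted, so these 6 are a description. The difference was not tested because the tables were normalised separately. At 12 h of CTCF loss Sesn2 was 0.54 higher in serum-free medium and 0.39 lower in serum (a gap of 0.93), and Zmat3 was at 0.14 and -0.62 (a gap of 0.76). Between CTCF and RAD21 loss at 12 h, Mdm2 was at -0.06 and 0.23 (a gap of -0.29), Ccng1 at -0.07 and 0.21 (-0.28) and Phlda3 at -0.18 and 0.40 (-0.58). At 24 h Bax was at 0.16 after CTCF loss and -0.27 after RAD21 loss (a gap of 0.43). The serum-free CTCF values of Zmat3, Mdm2, Ccng1, Phlda3 and Bax did not pass the test on their own, and the serum value of Zmat3 did.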

How the results depend on the processing

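With 2 libraries a group, leaving 1 out leaves a group whose lone library is assumed to vary like the others. Over those fits the number of members called ran from 3 to 5 for CTCF 24 h (5 with all libraries), 1 to 3 for RAD21 12 h (7), 3 to 5 for IAA with wild-type CTCF (5), 0 to 1 for mutated CTCF against control without IAA (2) and 1 to 2 for the interaction with mutated CTCF (2). It ran from 6 to 9 in serum (9) and 8 to 9 with the Chd4 hairpin (8). The fits on fewer libraries called fewer genes overall as well, for example 554 to 624 in place of 1787 for RAD21 12 h, 1007 to 1096 in place of 2438 for CTCF 12 h and 812 to 1909 in place of 2462 in serum. With only the compared groups in the fit, mutated CTCF against control gave 0 and its interaction 1. The pseudocount of 5, no filter and trimmed-mean scaling changed 3 single calls in all, each gained (Bax at RAD21 24 h against 12 h in 2 of them, and in the overexpression control). No call changed direction under any alternative run; direction was compared for calls only. The replicate numbers did not pair the samples: deviations of same-numbered libraries correlated between -0.0634 and 0.102. With the replicate number as a block, 6 members were called for RAD21 12 h (7 without it) and 2 for RAD21 24 h against 12 h (3), and the other counts were as without it, though at RAD21 24 h Mdm2 gained (adjusted p = 0.0476) and Phlda3 lost its call (0.0598). Over all genes, CTCF 24 h against 12 h had 20 calls, and 0 with the block or with those groups alone. With only the groups compared, the calls over all genes went from 774 to 186 for mutated and from 125 to 2 for wild-type CTCF against control, and from 197 to 123 for the interaction with wild-type CTCF. Grouping by the treatment label joined the oeCTCFwt_IAA libraries to oeCTCFwt. It gave 0 member calls for wild-type CTCF against control and no value for mutated CTCF. Over all genes that comparison then had 5 calls higher and 6 lower, in place of 70 and 55. The IAA responses with wild-type and mutated CTCF and both interactions were not run with those groups, so they rest on the sample titles. Read depth is unknown, and the intervals show what 2 libraries can resolve.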

Other observations

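The integrated stress response is a programme driven by ATF4 that also raises Sesn2. Of 14 of its genes tested, 6 rose and 0 fell at 12 h of CTCF loss (median 0.25, all genes 0.00), where 17.8% of all genes were called, among them Nupr1 (638 to 932, log2 0.54, adjusted p = 0.00439 in limma) and Trib3 (537 to 769.6, 0.51, adjusted p = 0.012). At 24 h 3 rose and 2 fell, with a median of -0.12, where 22.5% of all genes were called. After RAD21 loss 2 rose and 2 fell at 12 h and 6 rose and 0 fell at 24 h, where 13.0% and 13.7% of all genes were called, with Ddit3, which encodes CHOP, going from 347 to 695 (1.00, adjusted p = 0.00129). In serum 1 rose and 5 fell, where 17.0% of all genes were called. There the amino acid enzyme gene Asns fell from 4259 to 2931 (-0.54, adjusted p = 0.000104 in limma). With the Chd4 hairpin 5 rose and 7 fell, where 67.4% of all genes were called. The part of this programme in the Sesn2 results was not tested.

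Cyclin and CDK genes, on whose products p21 acts, were counted beside the same shares over all genes. The list also held other cell cycle genes, among them Mybl2, Foxm1, Cdc20, Aurka, Aurkb, Birc5 and Bub1. Of 21 tested, 1 rose and 2 fell at 12 h of CTCF loss (all genes 17.8%), where Cdk1 fell from 4219 to 3230 (-0.38, adjusted p = 0.00227). At 24 h 0 rose and 3 fell (all genes 22.5%). In RAD21 AID cells 20 were tested: 5 rose and 1 fell at 12 h (all genes 13.0%), and 0 rose and 7 fell at 24 h (all genes 13.7%), with Ccnd1, which encodes cyclin D1, going from 3326 to 2275 (-0.55, adjusted p = 0.00071). In serum 3 rose and 2 fell (all genes 17.0%), and Ccne1, which encodes cyclin E1, rose from 3821 to 5242 (0.46, adjusted p = 0.000174). With the Chd4 hairpin 5 rose and 13 fell (all genes 67.4%), and Cdk6 fell from 924 to 304 (-1.60, adjusted p = 2.45e-05).

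Other inhibitors of cyclin-dependent kinases moved in both directions. Cdkn2b, which encodes p15, rose from 41.7 to 79.4 at 12 h and 95.9 at 24 h of CTCF loss (0.91 and 1.17, adjusted p = 0.0283 and 0.00926), and Cdkn2d, which encodes p19, fell from 281 to 191 at 12 h and 208 at 24 h (-0.56 and -0.43, adjusted p = 0.023 and 0.0452), as Cdkn1a did. Cdkn1c, which encodes p57, rose from 43.3 to 80 at 24 h (0.87, adjusted p = 0.0291). With the Chd4 hairpin Cdkn1b, which encodes p27, fell from 1581 to 654 (-1.28, adjusted p = 1.99e-05), while Cdkn1a was at -0.03.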
